A study of Mus musculus with 22 samples.

Results

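The NF-kB subunits and feedback inhibitors are 10 genes of the transcription factor system that turns on inflammatory genes, 5 of them coding for subunits (Nfkb1, Nfkb2, Rel, Rela and Relb) and 5 for proteins that hold the subunits back or shape their output (Nfkbia, Nfkbib, Nfkbie, Nfkbiz and Tnfaip3). They were chosen by gene symbol from the 16235 genes listed in the deposited count tables, and all 10 had counts in each of the 22 libraries. RNA of whole mouse pancreas on a C57Bl/6 background was sequenced from 8 groups, and Ehmt2fl/fl animals, in which Cre removes floxed Ehmt2 (the gene of the histone H3 lysine 9 methyltransferase G9a), were set against Ehmt2+/+ animals that carry the same Cre. Caerulein-treated animals (AP, for acute pancreatitis) were 3 Ehmt2fl/fl and 2 Ehmt2+/+ mice with P48Cre/+, a Cre inserted at the Ptf1a locus, and 2 Ehmt2fl/fl and 4 Ehmt2+/+ mice with the Pdx1-Cre transgene. They were 4 weeks old, were fasted for 12 h, received 8 hourly intraperitoneal doses of 50 µg/kg caerulein, which drives acinar cells past their normal secretory limit through the cholecystokinin receptor, and gave tissue 18 h after the first dose. Untreated Pdx1-Cre animals were young adults (YA, 4 weeks; 3 Ehmt2fl/fl and 2 Ehmt2+/+ mice) or postnatal (PN, day 10; 3 mice of each genotype). Both drivers act in the pancreatic epithelium, so Ehmt2 stays intact in immune, stromal and endothelial cells of every animal, and the whole organ was read without separation of cell types.

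As background, NF-kB proteins bind DNA as pairs. In resting cells most pairs are kept in the cytoplasm by IkB proteins, and cytokine or microbial signals lead an IkB kinase to mark the IkB for destruction, which frees the subunits to enter the nucleus. Several subunit and IkB genes are themselves NF-kB targets, which gives the system its feedback, and in pancreatitis the pathway is known to be switched on early in acinar cells as well as in the leukocytes that enter the organ. Transcript levels do not show where the proteins are or whether they are active.

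The promoters are shown first, because the feedback described for these genes runs through kB sites near their starts. The 250 bases before the RefSeq transcript start (GRCm38.p6) were read for 7 of the 10 members, and Nfkb1, Relb and Nfkbiz were not in the table used. The kB consensus, a motif of 10 letters searched on both strands, was found in at least 1 window of 5 of these 7 members, namely Tnfaip3, Rel, Nfkbia, Nfkbie and Nfkb2, and in none of the windows of Nfkbib and Rela. Over all genes of the table it was found in 1204 of 27025 (4.46%), and over all windows of this length in 1281 of 32851 (3.9%), against 7 of the 10 member windows. The members were chosen as parts of a system known for this feedback, so their higher share is no independent support for it. Capitals mark the matching bases, and matches that overlap on the 2 strands run together in Rel and Nfkb2. Nfkb2 has 3 start sites in the table, each with a match, and the windows of starts 2 and 3 overlap. For each of the 5 genes 1 window is printed. The one of Nfkbie, whose transcript changed most among the inhibitors after caerulein, lay at chr17:45555450-45555699 (plus strand), that of the first start of Nfkb2 at chr19:46304487-46304736 (plus strand), that of Nfkbia at chr12:55492648-55492897 (minus strand), that of Rel at chr11:23770970-23771219 (minus strand) and that of Tnfaip3 at chr10:19015411-19015660 (minus strand). The starts are those of RefSeq, while the gene spans given below are those of GENCODE. The printed windows of Nfkb2 and Tnfaip3 lie wholly or mostly inside those spans. A match is a description of the letters and shows no binding.
Nfkbie: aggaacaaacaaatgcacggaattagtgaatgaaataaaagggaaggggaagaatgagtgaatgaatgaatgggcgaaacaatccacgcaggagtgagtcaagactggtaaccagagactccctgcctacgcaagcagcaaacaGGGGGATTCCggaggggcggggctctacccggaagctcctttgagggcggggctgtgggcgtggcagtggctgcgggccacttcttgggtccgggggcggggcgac
Nfkb2: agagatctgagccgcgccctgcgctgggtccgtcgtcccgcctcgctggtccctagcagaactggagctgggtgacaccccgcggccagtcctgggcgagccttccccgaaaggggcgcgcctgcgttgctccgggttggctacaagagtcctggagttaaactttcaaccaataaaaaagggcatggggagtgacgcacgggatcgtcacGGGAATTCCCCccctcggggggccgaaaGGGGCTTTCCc
Nfkbia: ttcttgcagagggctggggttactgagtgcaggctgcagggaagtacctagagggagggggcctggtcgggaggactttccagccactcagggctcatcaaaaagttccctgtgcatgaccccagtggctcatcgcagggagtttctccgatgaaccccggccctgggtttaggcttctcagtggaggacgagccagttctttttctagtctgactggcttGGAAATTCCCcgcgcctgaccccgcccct
Rel: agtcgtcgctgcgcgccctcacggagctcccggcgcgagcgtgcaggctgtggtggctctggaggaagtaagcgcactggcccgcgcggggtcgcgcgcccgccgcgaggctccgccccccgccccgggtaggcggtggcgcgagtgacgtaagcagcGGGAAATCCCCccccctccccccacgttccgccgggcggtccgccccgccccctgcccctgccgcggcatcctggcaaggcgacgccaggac
Tnfaip3: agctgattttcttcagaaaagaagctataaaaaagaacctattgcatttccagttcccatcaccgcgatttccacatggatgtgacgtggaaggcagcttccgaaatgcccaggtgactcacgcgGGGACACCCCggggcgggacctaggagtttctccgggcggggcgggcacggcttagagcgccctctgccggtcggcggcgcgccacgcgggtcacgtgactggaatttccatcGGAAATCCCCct

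Library totals ranged over 14229980 to 40321967 counts. Levels are given as CPM, counts scaled to library sizes that were adjusted on 1 TMM scale set from the 11791 genes with counts in all libraries. The TMM factors ran from 0.278 in YA Ehmt2fl/fl replicate 1 to 1.996 in AP Pdx1 Ehmt2fl/fl replicate 2. These levels are therefore not shares of a library's own counts. Ehmt2 itself had 56.6, 52.4 and 35.7 CPM in AP P48 Ehmt2fl/fl against 52.3 and 70.0 CPM in AP P48 Ehmt2+/+, 58.0 and 57.1 CPM in AP Pdx1 Ehmt2fl/fl against 60.8 to 68.8 CPM in AP Pdx1 Ehmt2+/+, 65.7 to 71.9 CPM in YA Ehmt2fl/fl against 51.6 and 73.0 CPM in YA Ehmt2+/+, and 32.5 to 48.1 CPM in PN Ehmt2fl/fl against 36.8 to 52.7 CPM in PN Ehmt2+/+. Its genotype difference did not pass in any of these comparisons, and counts per gene cannot show the loss of single floxed exons. A gene passed where its log2 difference was 1 or more in size and its Benjamini-Hochberg adjusted p over all genes tested was under 0.1, by edgeR's quasi-likelihood test. The p-values measure the spread between these mice. In whole tissue, fewer cells of a type and less RNA per cell cannot be told apart. Acinar markers took 28.0% to 35.9% of the counts of these shared genes in AP P48 Ehmt2fl/fl against 44.0% to 46.5% in AP P48 Ehmt2+/+, 25.5% to 27.8% in AP Pdx1 Ehmt2fl/fl against 39.6% to 48.2% in AP Pdx1 Ehmt2+/+, and 56.0% to 61.1% in YA Ehmt2fl/fl against 60.5% to 64.6% in YA Ehmt2+/+. In the member levels, 2 libraries stood apart. YA Ehmt2+/+ replicate 2 was high in most of them, and AP P48 Ehmt2fl/fl replicate 3 was low. By their Y-linked counts, all 4 AP Pdx1 Ehmt2+/+ mice were female and both AP Pdx1 Ehmt2fl/fl mice were male, so sex and genotype cannot be told apart within these groups. With sex as a covariate, which the other groups of the same model allowed, 0 of 10 members passed for genotype after caerulein. Among untreated YA mice, Ehmt2+/+ replicate 2 and Ehmt2fl/fl replicates 1 and 2 were male and the others female. Sex was thus uneven in the comparisons with YA too. With sex as a covariate, Nfkb1 also passed in Ehmt2+/+ pancreas after caerulein (log2 1.02 ± 0.35, adjusted p = 0.0592 by edgeR).

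Caerulein-treated and untreated Pdx1-Cre animals were compared to ask how the system responds to injury in each genotype. Most members rose in both genotypes. Of the 10 members, 9 rose in Ehmt2fl/fl pancreas, where 18.5% of all genes tested did, and 6 rose in Ehmt2+/+ pancreas, where 10.4% did. None fell. The median log2 difference over the members was 2.40 in Ehmt2fl/fl, beside 0.12 over all genes, and 1.42 in Ehmt2+/+, beside 0.10 over all genes. The 2 comparisons use different animals throughout, but the treated groups also differ from the untreated ones by the fast and the injections, which cannot be told apart from caerulein here. Macrophage and neutrophil markers rose beside the members. Of the macrophage and monocyte markers, 14 of 14 passed as higher in Ehmt2fl/fl (median log2 difference 4.47) and 10 of 14 in Ehmt2+/+ (2.12), and of the neutrophil markers tested 6 of 6 and 3 of 4 did. Dendritic cell markers passed as higher in 2 of 3 cases tested in Ehmt2fl/fl and 0 of 6 in Ehmt2+/+. B and plasma cell markers did in 1 of 3 and 0 of 8. No T and NK cell marker was tested in Ehmt2fl/fl, and 0 of 7 passed in Ehmt2+/+. Most of these values were positive. Lists with unlike totals held different genes in the 2 genotypes, because the deposited counts of each comparison had their own filter on low genes. A gene low in untreated pancreas can pass such a filter only through its treated libraries, and its rise is then no support. Duct markers passed as higher in 5 of 7 cases in each genotype, and acinar markers as lower in 16 of 16 and 14 of 16. The part of these cells in the members' rise was not tested.

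Relb and Nfkb2, which form the RelB:p52 pair of the slower, non-canonical arm of the pathway, changed most among the subunits. Relb (chr7:19606217-19629438, minus strand) had 28.8 and 28.0 CPM in caerulein-treated Ehmt2fl/fl pancreas against 4.23, 2.37 and 3.27 CPM in untreated Ehmt2fl/fl pancreas. In Ehmt2+/+ it had 30.7, 29.8, 33.7 and 35.8 CPM after caerulein against 1.94 and 8.03 CPM untreated. Treated and untreated values lay far apart in both genotypes, with a log2 difference of 3.14 ± 0.38 (SE; 8.79-fold, adjusted p = 8.58e-05) in Ehmt2fl/fl and 2.68 ± 0.40 (6.40-fold, adjusted p = 0.000582) in Ehmt2+/+. Nfkb2 (chr19:46304320-46312385, plus strand), which codes for p100, an IkB-like precursor that is cut to p52, had 64.0 and 54.0 CPM in treated against 9.51, 6.20 and 8.51 CPM in untreated Ehmt2fl/fl pancreas. Its Ehmt2+/+ values were 37.4, 55.0, 61.8 and 58.5 CPM after caerulein against 5.81 and 14.5 CPM untreated. Again no treated library overlapped an untreated one, and Nfkb2 rose by a log2 difference of 2.88 ± 0.33 (adjusted p = 6.06e-05) in Ehmt2fl/fl and 2.38 ± 0.35 (adjusted p = 0.000567) in Ehmt2+/+.

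Rela (chr19:5637483-5648130, plus strand) codes for p65, the main activating subunit of the canonical arm, and it was the most abundant subunit per length in all 8 groups. It had 64.8 and 57.5 CPM in treated against 27.5, 26.4 and 31.2 CPM in untreated Ehmt2fl/fl pancreas, and 43.5, 91.9, 94.95 and 77.0 CPM in treated against 25.2 and 21.8 CPM in untreated Ehmt2+/+ pancreas. The rise passed in both, at a log2 difference of 1.12 ± 0.28 (adjusted p = 0.00725) in Ehmt2fl/fl and 1.73 ± 0.30 (adjusted p = 0.00138) in Ehmt2+/+, and Rela was the only subunit with the smaller value in Ehmt2fl/fl. Nfkb1 (chr3:135584655-135691547, minus strand), the gene of p105 and its product p50, had 48.5 and 42.4 CPM in treated against 13.0, 15.3 and 16.6 CPM in untreated Ehmt2fl/fl pancreas. Its Ehmt2+/+ values were 33.5, 29.1, 27.5 and 52.4 CPM after caerulein against 14.4 and 23.2 CPM untreated. Nfkb1 rose in Ehmt2fl/fl (log2 1.61 ± 0.28, adjusted p = 0.000978), while in Ehmt2+/+ the difference of 0.93 ± 0.29 (adjusted p = 0.0297) was just under the size needed to pass. Rel (chr11:23736847-23770970, minus strand), which codes for c-Rel, a subunit most used by lymphoid and myeloid cells, was the scarcest. It had 8.92 and 10.2 CPM in treated against 1.06, 2.11 and 1.53 CPM in untreated Ehmt2fl/fl pancreas (log2 2.59 ± 0.73, adjusted p = 0.0134). In Ehmt2+/+ pancreas the treated libraries were spread over 12.2, 4.99, 3.36 and 18.1 CPM and overlapped the untreated ones at 1.29 and 5.95 CPM, and the difference did not pass (log2 1.38 ± 0.70, adjusted p = 0.164).

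**Figure D1:**
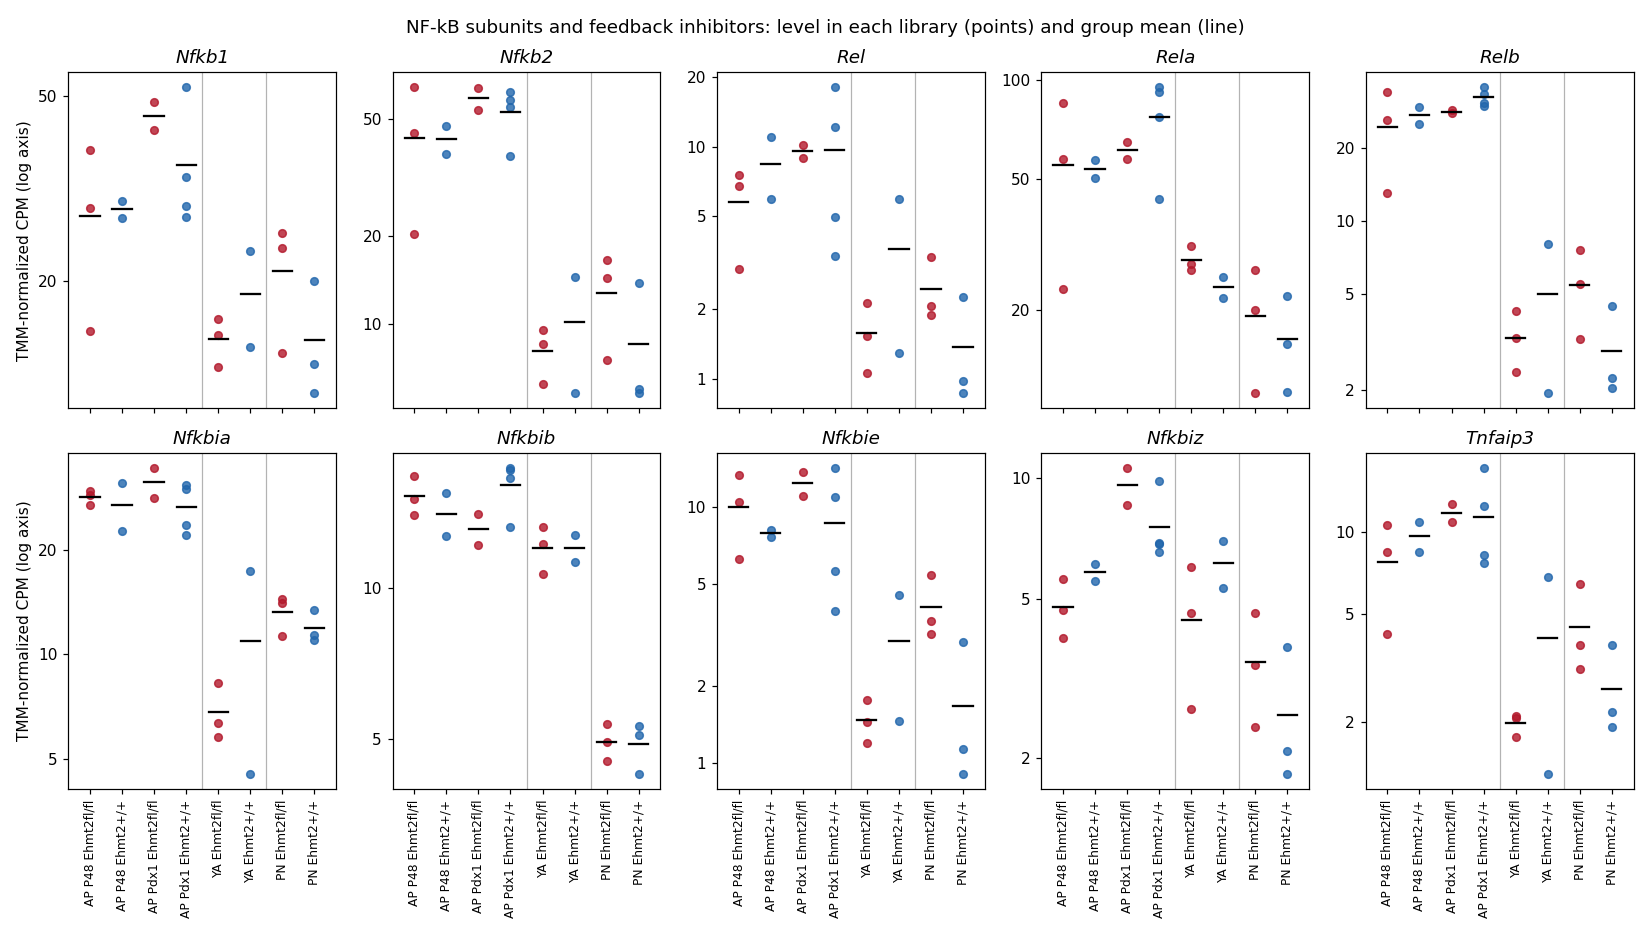
Level of each member (CPM, log axis, each panel with its own range) in the 22 libraries, as points, with the group mean as a line. Red points are Ehmt2fl/fl and blue points Ehmt2+/+, and grey lines part the caerulein-treated (AP), YA and PN groups. Relb, for example, sits at 28.0 to 35.8 CPM in the AP Pdx1 libraries and at 1.94 to 8.03 CPM in the YA libraries.

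Among the inhibitors, Nfkbie (chr17:45555703-45563169, plus strand), the gene of IkB epsilon, changed most. It had 13.7 and 10.99 CPM in treated against 1.76, 1.45 and 1.20 CPM in untreated Ehmt2fl/fl pancreas, a log2 difference of 3.10 ± 0.57 (8.57-fold, adjusted p = 0.00125). In Ehmt2+/+ it had 10.96, 5.64, 3.92 and 14.2 CPM in treated against 1.45 and 4.53 CPM in untreated pancreas, and it rose by 1.51 ± 0.56 (adjusted p = 0.0615) although 1 treated library lay below 1 untreated library. Tnfaip3 (chr10:19000910-19015657, minus strand) codes for A20, a ubiquitin-editing enzyme that shuts off signalling upstream of the IkB kinase. It had 10.95 and 12.7 CPM in treated against 1.76, 2.11 and 2.07 CPM in untreated Ehmt2fl/fl pancreas (log2 2.57 ± 0.52, adjusted p = 0.00206). The Ehmt2+/+ values were 12.5, 8.22, 7.74 and 17.2 CPM after caerulein against 1.29 and 6.86 CPM untreated (log2 1.45 ± 0.50, adjusted p = 0.0479), so all treated libraries stood above the untreated ones in both genotypes. Nfkbia (chr12:55489410-55492647, minus strand), the gene of IkB alpha, the quickest of the inhibitors to be made anew, had 28.2 and 34.4 CPM in treated against 8.28, 6.33 and 5.78 CPM in untreated Ehmt2fl/fl pancreas (log2 2.23 ± 0.39, adjusted p = 0.000932). In Ehmt2+/+ pancreas Nfkbia had 30.02, 23.5, 22.1 and 30.7 CPM after caerulein against 4.52 and 17.4 CPM untreated (log2 1.27 ± 0.39, adjusted p = 0.0296).

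Nfkbiz (chr16:55811375-55838899, minus strand) codes for IkB zeta, a nuclear IkB that also activates some inflammatory genes. Its levels were 10.6 and 8.60 CPM in treated against 2.64, 4.62 and 6.00 CPM in untreated Ehmt2fl/fl pancreas, a rise of 1.10 ± 0.30 on the log2 scale (adjusted p = 0.0118) that fell under the needed size without YA Ehmt2fl/fl replicate 1 (0.81) or AP Pdx1 Ehmt2fl/fl replicate 1 (0.94). In Ehmt2+/+ it had 6.54, 6.86, 6.90 and 9.86 CPM after caerulein against 5.33 and 6.99 CPM untreated and did not pass (log2 0.30 ± 0.30, adjusted p = 0.490). Nfkbib (chr7:28758251-28767512, minus strand), the gene of IkB beta, passed in neither genotype. It had 14.02 and 12.2 CPM in treated against 13.2, 10.7 and 12.2 CPM in untreated Ehmt2fl/fl pancreas (log2 0.13 ± 0.18, adjusted p = 0.557), and 17.3, 16.5, 17.2 and 13.2 CPM in treated against 12.8 and 11.3 CPM in untreated Ehmt2+/+ pancreas (log2 0.43 ± 0.17, adjusted p = 0.0818). Side by side with the promoter windows, Nfkbib had neither a kB match nor a rise, and Rela rose in both genotypes without a match. Of the 5 members with a match 5 rose in Ehmt2fl/fl, where 9 of all 10 did. In Ehmt2+/+ 4 of them rose, where 6 of all 10 did, and Rel did not pass. Of the members without a window, Relb rose in both genotypes, and Nfkb1 and Nfkbiz rose in Ehmt2fl/fl alone.

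The treated and untreated libraries did not overlap for 9 of the 10 members in Ehmt2fl/fl, where 40.6% of all genes had their treated libraries higher without overlap, and for 7 of the 10 in Ehmt2+/+, where 23.1% did. The count of 6 members in Ehmt2+/+ rested on the pair of untreated libraries. YA Ehmt2+/+ replicate 2 had levels 3.84 times those of replicate 1 for Nfkbia and 4.61 times for Rel. Without it the log2 differences were 2.56 for Nfkbia, 3.15 for Tnfaip3, 1.32 for Nfkb1 and 2.91 for Rel. Without YA Ehmt2+/+ replicate 1 they were 0.67, 0.80, 0.69 and 0.76. Nfkb2, Rela and Relb then stood at 1.94, 1.88 and 2.08. The genes passing over all genes shifted in these fits as well, so the shift was not particular to the members. Replicate 2 also had the higher macrophage marker sum (268 against 109 CPM over 14 genes) and the higher sum over 3 B and plasma cell markers (171 against 66.8 CPM), and its ribosomal RNA-like share was 24.3% against 11.9%. By Y-linked counts replicate 2 was male and replicate 1 female. The part of these cells, of this share and of sex in the member levels of replicate 2 was not tested. The untreated levels rest on few reads, down to 6 counts for Rel, 8 for Tnfaip3 and 9 for Nfkbie in the lowest library.

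Many genes around the members in the same pathway also rose after caerulein. Of all genes tested, 18.5% rose in Ehmt2fl/fl and 10.4% in Ehmt2+/+. Of the NF-kB target genes, 23 of 26 tested rose in Ehmt2fl/fl and 16 of 23 in Ehmt2+/+, and none fell. As with the markers above, the genes tested differ between the genotypes. Cxcl2, for example, was tested in Ehmt2fl/fl on 0 counts in every untreated library and was not tested in Ehmt2+/+. The lists were also chosen with earlier results of these data known. The survival gene Bcl2l1 rose by 2.51 ± 0.23 on the log2 scale in Ehmt2fl/fl (adjusted p = 1.91e-05) and 1.90 ± 0.24 in Ehmt2+/+ (adjusted p = 0.000225). Lcn2, which codes for an iron-siderophore binding protein of inflamed epithelium, rose by 5.26 ± 0.44 in Ehmt2fl/fl (adjusted p = 1.35e-05), and it passed in Ehmt2+/+ too, where the untreated libraries held only 5 and 2 counts. Receptors rose in 13 of 15 and 5 of 15 cases, among them Cd14, the lipopolysaccharide co-receptor (log2 4.46 ± 0.23 in Ehmt2fl/fl and 3.44 ± 0.26 in Ehmt2+/+), which is also a marker of monocytes. Of the 33 adaptors and kinases, 13 rose in Ehmt2fl/fl and 4 in Ehmt2+/+, the latter near the share over all genes. Myd88 was among them (2.21 ± 0.24 and 1.75 ± 0.26). The kinase gene Irak1 was the 1 that fell in each genotype (-1.66 ± 0.19 in Ehmt2fl/fl and -1.62 ± 0.16 in Ehmt2+/+). Ligand genes rose in 6 of 8 and 3 of 8 cases. Of the 16 inhibitors outside the members, 6 rose in Ehmt2fl/fl and 4 in Ehmt2+/+, including Tnip1, an adaptor of A20 (1.58 ± 0.33 in Ehmt2fl/fl and 2.71 ± 0.37 in Ehmt2+/+), and Bcl3, an atypical IkB that works with p50 and p52 (3.65 ± 0.59 in Ehmt2fl/fl).

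The larger count in Ehmt2fl/fl does not by itself show a different response. In the test of the difference between the 2 responses (Ehmt2fl/fl minus Ehmt2+/+), 0 of 10 members passed by edgeR, where 1.25% of all genes did; 0 had an unadjusted p under 0.05 and 0 passed by DESeq2. The values were positive for 8 members, with a median of 0.74 on the log2 scale beside 0.00 over all genes. Nfkbie had the largest, 1.59 ± 0.80 (95% interval -0.16 to 3.35, adjusted p = 0.395), and Rela (-0.61 ± 0.40) and Nfkbib (-0.30 ± 0.25) were the negative ones. The 1.25% stood for 169 genes. Leaving out YA Ehmt2+/+ replicate 2 gave 10, and the other counts were 11 and 23 without AP Pdx1 Ehmt2fl/fl replicate 1 or 2, 19 with sex as a covariate, 594 and 642 without YA Ehmt2+/+ replicate 1 or AP Pdx1 Ehmt2+/+ replicate 4, 80 without YA Ehmt2fl/fl replicate 2, 87 without AP Pdx1 Ehmt2+/+ replicate 3, and 113 to 189 when any other library was left out. DESeq2 called 560. Without YA Ehmt2+/+ replicate 1, Nfkbia passed (1.5, adjusted p = 0.062). Without replicate 2 of that group none passed and 5 members (Nfkb2, Rel, Relb, Nfkbia and Tnfaip3) changed sign. Of the pathway genes around the members, the receptor gene Tlr4 (2.13 ± 0.42, adjusted p = 0.0552) and the tissue factor gene F3 (2.24 ± 0.39, adjusted p = 0.0374) passed this test.

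**Figure D2:**
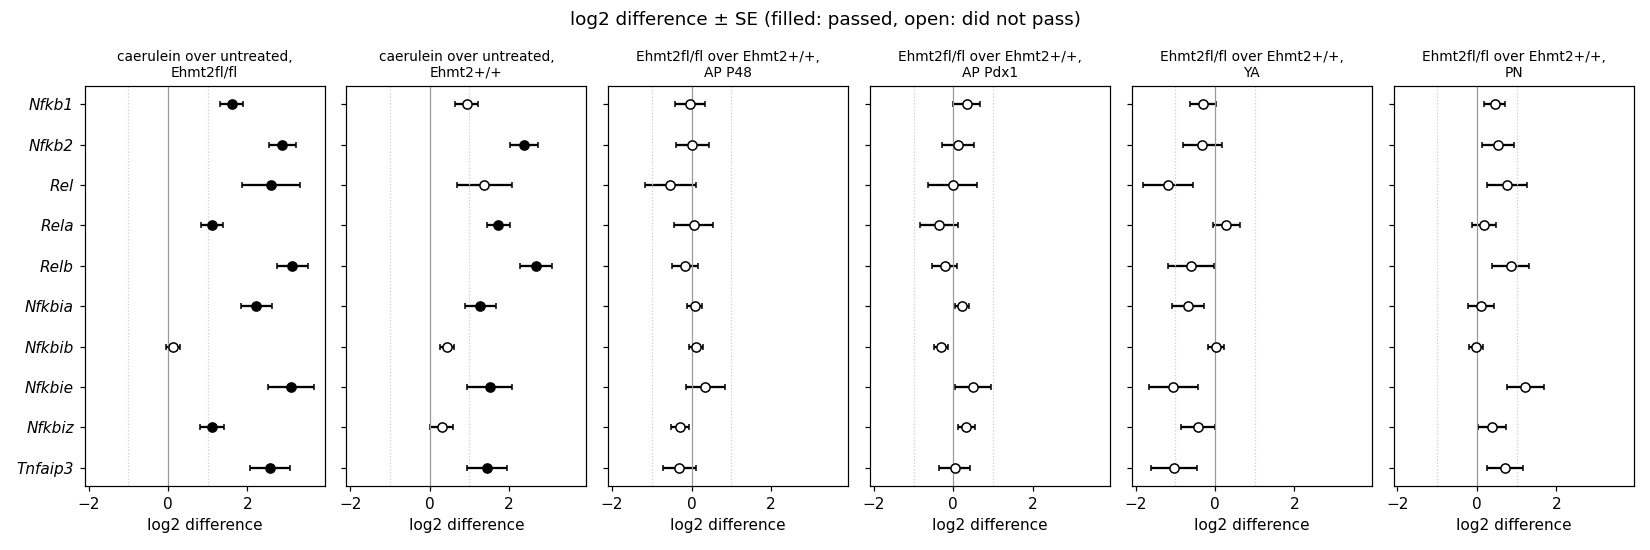
Log2 difference of each member (points) with its SE (bars) in the 2 caerulein comparisons and in the 4 genotype comparisons, from edgeR. Filled points passed and open points did not, and dotted lines mark a log2 difference of 1 in size. Filled points appear only in the caerulein panels, 9 in Ehmt2fl/fl and 6 in Ehmt2+/+.

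Caerulein-treated Ehmt2fl/fl and Ehmt2+/+ animals were compared within each driver to ask whether Ehmt2 loss changes the inflamed organ. None of the 10 members passed by edgeR with either driver. Over all genes 5.96% passed with P48Cre/+ and 7.09% with Pdx1-Cre, shares too small for 0 of 10 to set the members apart. In each of these comparisons 0 members had an unadjusted p under 0.05 and 0 passed by DESeq2. The counts over all genes were not steady. With Pdx1-Cre, 1076 genes passed, against 162 without AP Pdx1 Ehmt2fl/fl replicate 1, 571 without its replicate 2 and 336 with sex as a covariate, and with P48Cre/+, 879 passed, against 94 without AP P48 Ehmt2+/+ replicate 2, 519 without its replicate 1, 534 without AP P48 Ehmt2fl/fl replicate 2 and 507 with those 2 groups fitted alone. The member values ran over -0.54 to 0.35 on the log2 scale with P48Cre/+ (median -0.01, 0.03 over all genes) and over -0.36 to 0.50 with Pdx1-Cre (median 0.08, -0.02 over all genes). For several members the 95% intervals held a log2 difference of the size needed to pass. Those of Rela ran from -1.05 to 1.15 with P48Cre/+ and from -1.42 to 0.69 with Pdx1-Cre. With driver as a covariate, the 5 Ehmt2fl/fl against the 6 Ehmt2+/+ animals gave values of -0.26 to 0.43. Again 0 of 10 passed (8.07% of all genes), with 0 at an unadjusted p under 0.05 and 0 by DESeq2. The 95% intervals of that fit ran from -0.13 to 0.43 for Nfkbia and from -0.66 to 0.29 for Relb, but from -1.19 to 0.67 for Rel and from -0.26 to 1.12 for Nfkbie, so a log2 difference of the size needed to pass lay inside the intervals of Rel and Nfkbie.

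With P48Cre/+, Rela had 84.8, 57.3 and 23.1 CPM in Ehmt2fl/fl against 50.2 and 57.0 CPM in Ehmt2+/+ pancreas, Nfkb2 had 64.5, 44.8 and 20.2 CPM against 38.2 and 47.4 CPM, and Relb had 34.2, 26.1 and 13.1 CPM against 25.2 and 29.6 CPM. For each of these subunits 1 Ehmt2fl/fl library lay above, 1 near and 1 well below the Ehmt2+/+ libraries. Nfkb1 had 38.3, 28.8 and 15.6 CPM in Ehmt2fl/fl against 29.8 and 27.3 CPM in Ehmt2+/+, and Rel had 7.57, 6.78 and 2.96 CPM against 10.99 and 5.93 CPM. Replicate 3 of AP P48 Ehmt2fl/fl was the lowest in all 5 subunits. Among the inhibitors, Nfkbia and Nfkbib were more even over the libraries. Nfkbia had 28.7, 29.5 and 27.0 CPM in Ehmt2fl/fl against 31.2 and 22.6 CPM in Ehmt2+/+, and Nfkbib had 16.7, 15 and 14 CPM against 12.7 and 15.4 CPM. Nfkbie had 13.3, 10.4 and 6.24 CPM in Ehmt2fl/fl against 8.10 and 7.66 CPM in Ehmt2+/+. For Tnfaip3 the levels were 10.6, 8.48 and 4.24 CPM in Ehmt2fl/fl against 10.95 and 8.45 CPM in Ehmt2+/+, and for Nfkbiz 4.68, 5.59 and 3.99 CPM against 6.11 and 5.54 CPM. All 10 members overlapped between the genotypes with this driver, where 20.8% of all genes had Ehmt2fl/fl higher without overlap and 14.9% lower. With Pdx1-Cre, Relb was the 1 member without overlap and was lower in Ehmt2fl/fl (28.8 and 28.0 CPM against 29.8 to 35.8 CPM), as 15.9% of all genes were. Without AP P48 Ehmt2fl/fl replicate 3 still 0 of 10 passed, and Nfkb1 (0.19) and Relb (0.10) then had positive values.

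Some receptors and targets on either side of the members differed with genotype after caerulein. The lists were chosen with earlier results of these data known, so their shares are no independent support for a contrast with the members. With both drivers together, 13 of 26 target genes, 6 of 16 receptors and 3 of 10 ligands tested were higher in Ehmt2fl/fl and passed, beside 5.32% of all genes, while 1 of 33 adaptors and kinases and 0 of 16 inhibitors outside the members did, and no gene of these lists passed as lower. Among targets, the neutrophil chemokine gene Cxcl2 was higher by 3.33 ± 0.30 on the log2 scale (adjusted p = 6.87e-05, on 3 to 11 counts in each Ehmt2+/+ library), F3 by 2.41 ± 0.21 (adjusted p = 6.11e-05), Lcn2 by 2.39 ± 0.31 and the cyclin gene Ccnd1 by 1.25 ± 0.16. Cd14 was higher by 1.32 ± 0.15 (adjusted p = 0.000261), Tlr4, which senses lipopolysaccharide, by 1.67 ± 0.26, and Il1rap, the shared chain of the IL-1 receptors, by 1.16 ± 0.15. The ligand gene Il1b was higher by 2.64 ± 0.36 (adjusted p = 0.00084) and Tnfsf14 by 1.77 ± 0.34. Card9, an adaptor of myeloid cells, was the 1 adaptor that passed (1.47 ± 0.21). Read by driver, 9 of 27 targets, 4 of 16 receptors and 1 of 10 ligands passed with P48Cre/+, and 11 of 27, 6 of 16 and 3 of 10 with Pdx1-Cre. The A20 partner gene Tnip3 was the 1 inhibitor outside the members to pass, with P48Cre/+ alone (1.90 ± 0.44, adjusted p = 0.0433), and its value was 0.98 ± 0.40 with both drivers. No gene (0%) passed the edgeR test of the genotype difference between drivers (P48Cre/+ minus Pdx1-Cre), the 10 members included, of which 0 had an unadjusted p under 0.05 and 0 passed by DESeq2.

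**Figure D3:**
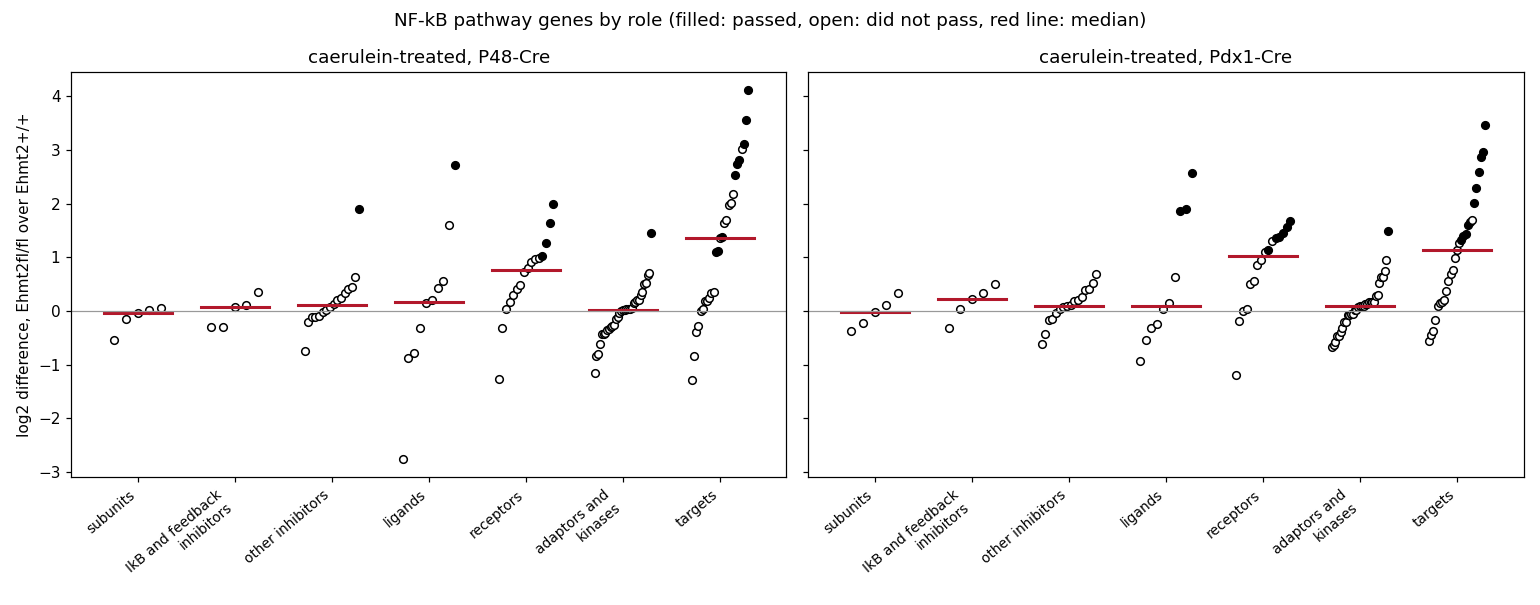
Log2 difference of Ehmt2fl/fl over Ehmt2+/+ after caerulein for the pathway genes by role (each point a gene, filled where it passed, red line at the median), with P48Cre/+ on the left and Pdx1-Cre on the right. The members (first 2 columns of each panel) lie between -0.54 and 0.50 with no filled point, while 9 of 27 targets with P48Cre/+ and 11 of 27 with Pdx1-Cre are filled.

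Macrophage, neutrophil and duct markers moved with these target and receptor genes. Macrophage and monocyte markers (14 of 14 genes with counts) summed to 1412 to 2672 CPM in AP P48 Ehmt2fl/fl against 561 and 903 CPM in AP P48 Ehmt2+/+, and to 1741 and 1969 CPM in AP Pdx1 Ehmt2fl/fl against 638 to 1089 CPM in AP Pdx1 Ehmt2+/+. Neutrophil markers (6 of 9 genes with counts, Ly6g, Mpo and Elane not listed) summed to 44.5 to 97.4 CPM in AP P48 Ehmt2fl/fl against 5.14 and 6.79 CPM in AP P48 Ehmt2+/+, and to 51.7 and 85.8 CPM in AP Pdx1 Ehmt2fl/fl against 6.88 to 26.0 CPM in AP Pdx1 Ehmt2+/+. Duct markers (7 of 7 genes) summed to 1091 to 1618 CPM in AP P48 Ehmt2fl/fl against 721 and 787 CPM in AP P48 Ehmt2+/+, and to 1051 and 1317 CPM in AP Pdx1 Ehmt2fl/fl against 518 to 937 CPM in AP Pdx1 Ehmt2+/+. None of these 3 sums overlapped between the genotypes. The share of all counts taken by 3 genes that resemble ribosomal RNA was 14.3% to 18.2% in AP P48 Ehmt2fl/fl against 33.0% and 35.6% in AP P48 Ehmt2+/+, and 19.2% and 24.7% in AP Pdx1 Ehmt2fl/fl against 22.4% to 39.6% in AP Pdx1 Ehmt2+/+. The part of these cells and of this share in the genotype differences was not tested.

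Lymphoid and dendritic cell markers leaned lower in Ehmt2fl/fl with both drivers together, and none passed. T and NK cell markers were positive in 0 of 7 cases tested (median log2 difference -0.76). B and plasma cell markers were positive in 0 of 8 (-0.78) and dendritic cell markers in 1 of 6 (-0.66). Lymphoid markers also varied widely among libraries of both genotypes. B and plasma cell markers (8 of 8 genes) summed to 468, 349 and 6.63 CPM in AP P48 Ehmt2fl/fl against 691 and 278 CPM in AP P48 Ehmt2+/+, and to 15.4 and 489 CPM in AP Pdx1 Ehmt2fl/fl against 638, 156, 5.88 and 894 CPM in AP Pdx1 Ehmt2+/+. T and NK cell markers (7 of 9 genes) did likewise, from 1.08 CPM in AP Pdx1 Ehmt2fl/fl replicate 1 up to 118 CPM in AP Pdx1 Ehmt2+/+ replicate 4. Rel and Tnfaip3 were highest in that same replicate 4 (18.1 and 17.2 CPM), and Rel was lowest in AP P48 Ehmt2fl/fl replicate 3 and AP Pdx1 Ehmt2+/+ replicate 3 (2.96 and 3.36 CPM), which had the low B and plasma cell sums of 6.63 and 5.88 CPM. AP Pdx1 Ehmt2fl/fl replicate 1 went the other way, with Rel at 8.92 CPM beside a sum of 15.4 CPM. Rela showed no such order, at 94.95 CPM in AP Pdx1 Ehmt2+/+ replicate 3 and 23.1 CPM in AP P48 Ehmt2fl/fl replicate 3. These values are a description over 11 libraries, and the part of lymphoid cells in them was not tested.

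**Figure D4:**
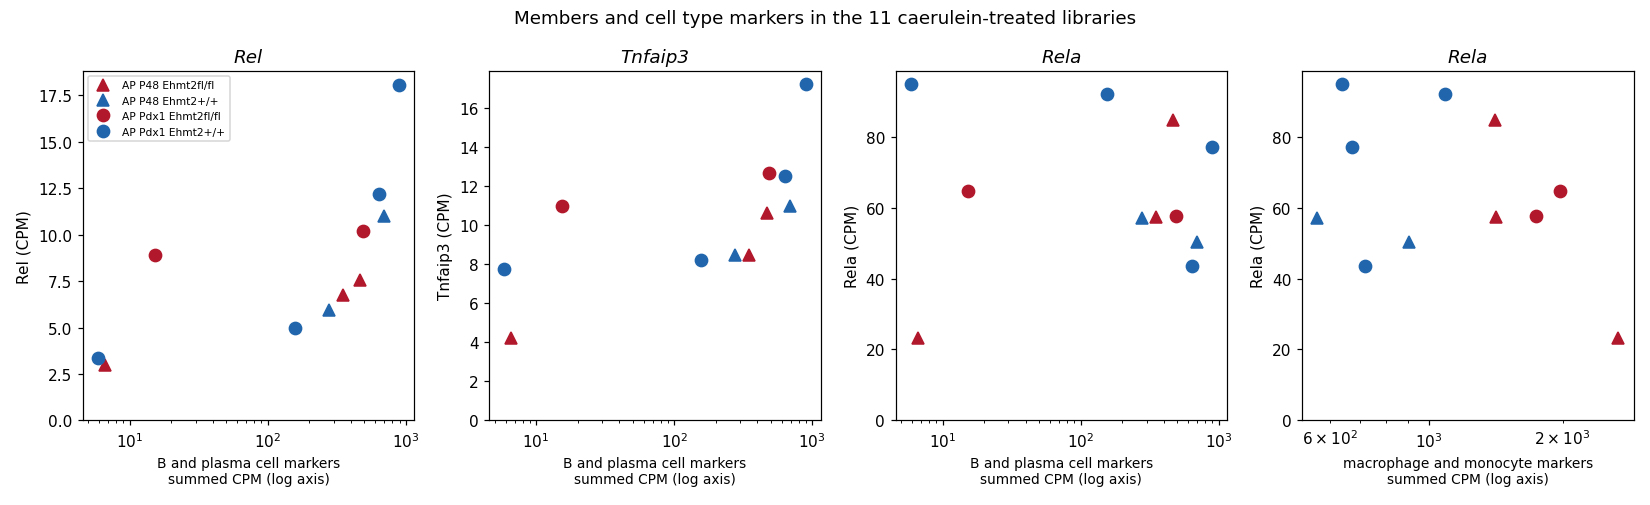
Levels of Rel, Tnfaip3 and Rela (CPM, linear axis from 0) against the summed CPM of B and plasma cell markers, and Rela against macrophage and monocyte markers (log axes), in the 11 caerulein-treated libraries. Triangles are P48Cre/+ and circles Pdx1-Cre, red Ehmt2fl/fl and blue Ehmt2+/+. Rel runs up to 18.1 CPM in the library with the highest B and plasma cell sum (894 CPM), while the low Rela value of 23.1 CPM stands in the library with the highest macrophage sum (2672 CPM).

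Untreated YA animals were compared to ask whether Ehmt2 loss alone moves the system in the young organ. None of the 10 members passed (0.328% of all genes did; 0 at an unadjusted p under 0.05 and 0 by DESeq2), and 8 had negative values (median -0.53, beside 0.00 over all genes). The most negative were Rel (-1.19 ± 0.63, adjusted p = 0.644), Nfkbie (-1.05 ± 0.61) and Tnfaip3 (-1.03 ± 0.59). All 3 Ehmt2fl/fl libraries lay between the 2 Ehmt2+/+ libraries for Relb, Nfkb2, Nfkbia and Tnfaip3, whose values are given above, so the sign of the difference turned on which Ehmt2+/+ library was used. Without YA Ehmt2+/+ replicate 2 the sign changed in 7 of 10 members. Without replicate 1, Nfkbia was lower in Ehmt2fl/fl, at a log2 difference of -1.32, against 0.57 without replicate 2. Rela alone did not overlap, and was higher in Ehmt2fl/fl (26.4 to 31.2 CPM against 21.8 and 25.2 CPM, log2 0.29 ± 0.35), as 14.1% of all genes were. Among the pathway genes around the members the target gene Lcn2 was the 1 to pass, higher in Ehmt2fl/fl by 3.08 ± 0.50 (adjusted p = 0.0352), which rests on 5 and 2 counts in the Ehmt2+/+ libraries. No marker gene passed. Fibroblast and stellate cell markers were positive in 8 of 8 cases (median 0.60) and duct markers in 7 of 7 (0.62). Macrophage and monocyte markers were in 7 of 14 (-0.06), endothelial in 4 of 7 (0.06) and acinar in 7 of 16 (-0.07). B and plasma cell markers were in 0 of 3 (-2.155), dendritic cell in 0 of 2 (-0.96) and neutrophil in 2 of 2 (1.17). Their part in the member values was not tested.

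At PN day 10 most member values were positive, again without a call. None of the 10 passed (0.679% of all genes did; 1, Nfkbie, at an unadjusted p under 0.05 and 0 by DESeq2), and 9 had positive values (median 0.49, beside 0.00 over all genes). Nfkbie had 5.41, 3.60 and 3.20 CPM in PN Ehmt2fl/fl against 2.96, 1.13 and 0.906 CPM in PN Ehmt2+/+, without overlap, as 9.68% of all genes were higher (log2 1.22 ± 0.46, adjusted p = 0.403). Relb, with 7.58, 3.25 and 5.505 CPM in Ehmt2fl/fl against 4.43, 2.03 and 2.25 CPM in Ehmt2+/+, had the next value (0.85 ± 0.46), and its libraries overlapped. Rel had 3.34, 1.88 and 2.06 CPM in Ehmt2fl/fl against 2.25, 0.865 and 0.974 CPM in Ehmt2+/+, and Tnfaip3 had 6.45, 3.13 and 3.84 CPM against 3.83, 2.18 and 1.91 CPM. The other subunits ran over 14 to 25.4 CPM in Ehmt2fl/fl against 11.4 to 19.9 CPM in Ehmt2+/+ for Nfkb1, 7.51 to 16.5 CPM against 5.79 to 13.8 CPM for Nfkb2, and 11.2 to 26.4 CPM against 11.3 to 22.0 CPM for Rela. The other inhibitors differed less, with Nfkbia at 11.3 to 14.4 CPM in Ehmt2fl/fl against 10.98 to 13.4 CPM in Ehmt2+/+, Nfkbiz at 2.38 to 4.61 CPM against 1.82 to 3.78 CPM, and Nfkbib at 4.54 to 5.35 CPM against 4.26 to 5.31 CPM. In both genotypes 1 or 2 libraries set the upper end for most members. Fibroblast and stellate cell markers (8 of 8 genes) summed to 4710, 2364 and 6132 CPM in Ehmt2fl/fl against 2562, 2229 and 3036 CPM in Ehmt2+/+, with all 8 positive (median log2 difference 0.70). Other marker lists leaned the same way without any gene passing, with 7 of 7 endothelial (median 0.47), 13 of 14 macrophage and monocyte (0.40), 6 of 6 B and plasma cell (1.15), 4 of 5 T and NK cell (1.39) and 6 of 7 duct markers tested (0.21) positive, while 4 of 15 acinar (-0.27) and 0 of 5 islet markers (-1.25) were. The part of these cells in the member values was not tested. Lcn2 was again the 1 pathway gene to pass (1.71 ± 0.31, adjusted p = 0.0398).

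The genotype difference itself was set against age (YA minus PN). It passed in 0 of 10 members (0.0336% of all genes; 3 members, Rel, Nfkbie and Tnfaip3, at an unadjusted p under 0.05, and 0 by DESeq2), with negative values in 8 (median -0.84, beside 0.04 over all genes). The most negative value was that of Nfkbie, -2.27 ± 0.76 (adjusted p = 0.551), and without YA Ehmt2+/+ replicate 2 it was -1.24.

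The make-up of the subunit transcripts was read per length, as each subunit's share of the summed CPM per kb of the 5. Rela held the largest share in every group, 47.8% ± 3.19 (SD, n = 3) in AP P48 Ehmt2fl/fl against 46.7% ± 0.24 (n = 2) in AP P48 Ehmt2+/+, 44.1% ± 0.19 (n = 2) in AP Pdx1 Ehmt2fl/fl against 49.9% ± 7.54 (n = 4) in AP Pdx1 Ehmt2+/+, 69.5% ± 2.08 (n = 3) in YA Ehmt2fl/fl against 59.7% ± 17.9 (n = 2) in YA Ehmt2+/+, and 49.7% ± 5.76 in PN Ehmt2fl/fl against 57.5% ± 4.23 in PN Ehmt2+/+ (n = 3 each). Relb and Nfkb2 took more of the sum after caerulein. In Pdx1-Cre Ehmt2fl/fl pancreas Nfkb2 held 27.7% to 29.3% after caerulein against 11.2% to 15.6% untreated, and Relb 15.6% to 16.9% against 5.05% to 8.16%. In Ehmt2+/+ pancreas Nfkb2 held 22.8% to 24.2% after caerulein against 11.2% and 21.1% untreated, and Relb 14.6% to 22.9% against 4.40% and 13.8%. The shares of Nfkb2 and Relb did not overlap between treated and untreated libraries in either genotype. Rel held the smallest mean share in every group, from 1.61% in YA Ehmt2fl/fl to 3.42% in YA Ehmt2+/+.

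**Figure D5:**
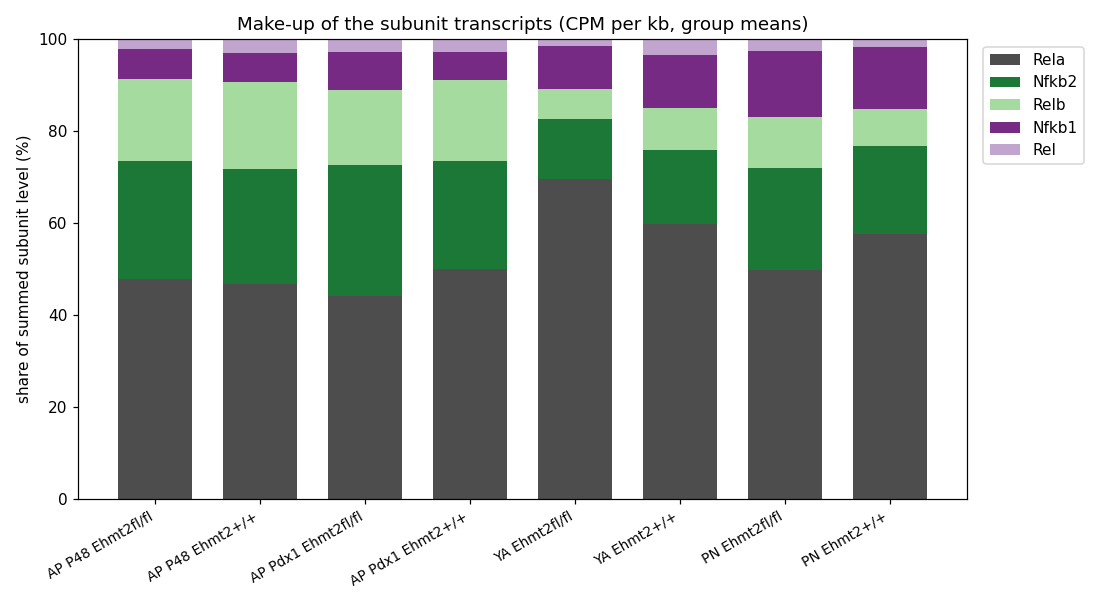
Mean share of each subunit in the summed CPM per kb of the 5 subunits (%, stacked to 100), by group, with each Ehmt2fl/fl group left of its Ehmt2+/+ group. The share of Rela is 44.1% to 49.9% in the 4 caerulein-treated groups and 69.5% and 59.7% in the YA groups.

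The inhibitors were ordered by their mean level per length in the same way. Nfkbia had the highest mean in the AP and PN groups, at 17.7 CPM per kb in AP P48 Ehmt2fl/fl against 16.7 in AP P48 Ehmt2+/+, 19.5 in AP Pdx1 Ehmt2fl/fl against 16.5 in AP Pdx1 Ehmt2+/+, and 8.23 in PN Ehmt2fl/fl against 7.40 in PN Ehmt2+/+. In YA Ehmt2fl/fl Nfkbib was above it in all 3 libraries, with means of 5.55 CPM per kb for Nfkbib and 4.22 for Nfkbia. In YA Ehmt2+/+ the means were 5.54 for Nfkbib and 6.79 for Nfkbia, where the spread of Nfkbia (SD 5.63) was larger than the gap. Nfkbie, Nfkbiz and Tnfaip3 were all under 4.1 CPM per kb in each group. By the means over the 8 groups (log2 CPM), the gene most like each member among 9221 genes was H2-Q4 for Nfkb2 (Pearson r = 0.996, with Relb next at 0.995), Zc3hav1 for Relb (0.997), Gclc for Rela (0.998), Adcy7 for Nfkb1 (0.996), Mndal for Rel (0.989), Adap1 for Nfkbia (0.994), Uhrf1bp1l for Nfkbie (0.995), Cx3cr1 for Tnfaip3 (0.996), Sorl1 for Nfkbiz (0.989) and Reg3g for Nfkbib (0.991). These are descriptions over 8 points that share the contrast between treated and untreated groups, and many genes come close to them. Among the members, the means of Nfkb1, Nfkb2, Rel, Relb, Nfkbie and Tnfaip3 were alike (r = 0.925 to 0.995), and Nfkbib was least like the rest (r = 0.452 with Nfkbia).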

How the data were processed

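RNA of whole pancreas was read from 22 libraries in 8 groups. As deposited, the counts are raw reads per gene in 6 sheets, which the authors made by mapping to GRCm38.p6 with GENCODE vM23 in MapRseq3, each sheet with its own filter on low genes, and the same libraries had 0 conflicting counts between sheets. The authors' RPKM values and the fold changes and p-values of their own comparisons (edgeR 3.28.1) were not used. The gene lengths they deposited gave levels per kb.

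Counts were tested with edgeR 4.0.16 (R 4.3.3; TMM, filterByExpr at 10 counts a library and 15 in total, quasi-likelihood F-test, Benjamini-Hochberg adjustment), in 3 models: untreated Pdx1-Cre libraries, untreated YA with caerulein-treated Pdx1-Cre libraries, and caerulein-treated libraries of both drivers. A gene passed at an adjusted p under 0.1 and a log2 difference of 1 or more in size, as in the study. Genes found in 1 sheet only were fitted in the compared groups alone. Rel, Nfkbie and Tnfaip3 were not in the YA genotype sheet, so their YA counts came from the caerulein sheets. SE is the log2 difference divided by the square root of F. The 95% intervals use that SE with the t quantile for the test's own degrees of freedom. The test was tried on simulated counts. Total counts of 14229980 to 40321967 set the precision. Levels used 1 TMM scale, and patterns were compared by Pearson r. Sex was read from Y-linked counts.

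Alternatives were RLE factors, library totals, factors without digestive enzyme and mitochondrial genes, no filter on low counts, DESeq2 1.42.0, the compared groups alone, sex as a covariate, other thresholds and each library left out. The members and lists were chosen with earlier results of these data known. Named were all members, at most 4 genes of each pathway list with low adjusted p, and the genes most like each member.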

Additional observations from a re-analysis of the deposited data

Results flagged for a closer look

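Nfkbiz in the AP Pdx1 Ehmt2+/+ group had 1 library far from the other 3, with 9.86 CPM in replicate 4 and 6.54, 6.86 and 6.90 CPM in replicates 1 to 3. The gap between replicate 4 and the nearest of the others was 0.891 of the whole range of the group, above the critical value of Dixon's test at 95% for 4 samples. This was the only group of 4, in which 11 genes (the members and Ehmt2) were examined. The level of 95% holds for each gene on its own, so 1 flag among 11 genes can arise by chance. Replicate 4 also had the highest B and plasma cell marker sum (894 CPM), and the part of those cells was not tested.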

How the results depend on the processing

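No paired analysis was possible because the labels carry animal numbers and no replicate numbers shared between groups, so no fit with a replicate block was made. The PN animal numbers share a prefix in 2 of the 3 mice of each genotype and no prefix across genotypes. The labels do not say whether a prefix marks a litter, and if it does, those mice are not independent and litter and genotype cannot be told apart at PN. Of the 840 single-member values under other settings, 784 kept their direction and call, 4 lost the call, 16 gained it and 36 changed sign. Of the 770 values with 1 library left out, 694 kept both, 6 lost the call, 8 gained it and 62 changed sign. No called value changed sign.

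The count of members that rose after caerulein in Ehmt2+/+ was 6, against 3 when the compared groups were fitted alone (Nfkb2, Rela and Relb) and 10 with library totals alone. Over all genes, 2545 of 13945 passed with the groups alone and 10517 of 13950 with library totals. Library totals set the median of all genes at 1.55 there, 2.38 in Ehmt2fl/fl and 0.84 for AP Pdx1-Cre on the log2 scale. With them, 2 members also passed for the difference of responses (Nfkbia and Nfkbie), as 2097 of 13468 genes did. For AP Pdx1-Cre 4 members passed (Nfkb1, Nfkbia, Nfkbie and Nfkbiz), as 5214 of 15174 genes did. For AP with both drivers 1 member passed (Nfkbie), as 4540 of 14440 genes did. These counts do not set the members apart in the last 3 comparisons.

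With RLE size factors in place of TMM, the sign changed for AP P48Cre/+ Nfkb2 (-0.0403) and Rela (-0.0121). With factors set without digestive enzyme and mitochondrial genes, the sign changed for AP P48Cre/+ Nfkb2 (-0.0418) and Rela (-0.0133). With DESeq2, the sign changed for AP P48Cre/+ Nfkb2 (-0.0406) and Rela (-0.0125). With sex as a covariate, the sign changed for the difference of responses Relb (-0.42) and Nfkbia (-0.0904), for AP Pdx1-Cre Rel (0.73), Rela (0.21) and Relb (0.17), for AP P48Cre/+ Nfkb2 (-0.00542), for AP with both drivers Rela (0.0858), Nfkbiz (-0.061) and Tnfaip3 (0.0501) and for P48Cre/+ minus Pdx1-Cre Rela (-0.18) and Relb (-0.33). With library totals alone, the sign changed for PN Nfkbib (0.24), for YA minus PN Rela (-0.11) and Nfkbib (-0.22), for the difference of responses Rela (0.16) and Nfkbib (0.52), for AP Pdx1-Cre Rel (0.81), Rela (0.50), Relb (0.65) and Nfkbib (0.56), for AP P48Cre/+ Nfkb1 (0.79), Rel (0.28), Relb (0.68), Nfkbiz (0.51) and Tnfaip3 (0.52) and for AP with both drivers Rel (0.56), Rela (0.69), Relb (0.66), Nfkbib (0.73) and Tnfaip3 (0.71). None of these values was called, and the cause was not tested.

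With each library left out in turn, the members passed numbered 0 to 1 for YA, 3 to 8 for caerulein in Ehmt2+/+ and 0 to 1 for the difference of responses. For YA, the lowest and highest log2 values were -0.59 and 0.0528 (Nfkb1), -0.81 and 0.46 (Nfkb2), -1.86 and 0.29 (Rel), -1.26 and 0.74 (Relb), -1.32 and 0.57 (Nfkbia), -0.0965 and 0.13 (Nfkbib) and -1.74 and 0.61 (Tnfaip3). For YA minus PN, the lowest and highest log2 values were -0.17 and 0.41 (Rela), -1.43 and 0.46 (Nfkbia) and -0.0659 and 0.16 (Nfkbib). For the difference of responses, the lowest and highest log2 values were -0.37 and 0.90 (Nfkb2), -0.37 and 1.77 (Rel), -0.99 and 1.006 (Relb), -0.38 and 1.5 (Nfkbia) and -0.63 and 1.72 (Tnfaip3). For caerulein in Ehmt2fl/fl, the lowest and highest log2 values were -8.33e-05 and 0.23 (Nfkbib). For PN, the lowest and highest log2 values were -0.12 and 0.45 (Rela) and -0.11 and 0.0251 (Nfkbib). For AP Pdx1-Cre, the lowest and highest log2 values were -0.0311 and 0.23 (Nfkb2), -0.29 and 0.48 (Rel) and -0.0972 and 0.30 (Tnfaip3). For AP with both drivers, the lowest and highest log2 values were -0.10 and 0.23 (Nfkb2), -0.0962 and 0.13 (Nfkbiz) and -0.23 and 0.00648 (Tnfaip3). For P48Cre/+ minus Pdx1-Cre, the lowest and highest log2 values were -0.53 and 0.14 (Nfkb2), -0.0576 and 0.67 (Rela), -0.27 and 0.27 (Relb), -0.34 and 0.0922 (Nfkbia) and -0.50 and 0.0774 (Nfkbie). For AP P48Cre/+, the lowest and highest log2 values were -0.37 and 0.19 (Nfkb1), -0.41 and 0.31 (Nfkb2), -0.42 and 0.36 (Rela), -0.49 and 0.0951 (Relb), -0.12 and 0.31 (Nfkbia) and -0.0325 and 0.28 (Nfkbib). The cause of these changes was not tested.

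The library alternatives with 1 sample in a group assume that this sample varies like the other groups. Sex could not be fitted for PN and for YA minus PN, and the compared groups were not fitted alone for the differences of differences and both drivers. Groups of 2 to 4 mice, untreated counts as low as 6 for Rel, and the uneven YA Ehmt2+/+ pair limit all comparisons with YA, and counts per gene in whole tissue read neither protein nor cell type.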
